A study of Mus musculus with 23 samples.

Results

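Cyp2e1, Art3, Tfcp2l1, Nup133 and Rmdn1 were followed through 2 mouse experiments on muscle without its normal load. The 5 genes were selected on the measured values: each moved the same way in spaceflight and in hindlimb suspension. They are 5 of the 12393 genes with a symbol of their own on the array, represented by 12 probe sets, and all 5 were among the 9133 genes tested. Cyp2e1, Art3 and Tfcp2l1 were higher in unloaded muscle, whereas Nup133 and Rmdn1 were lower.

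All animals were female C57BL/6J mice aged 77 days with no engineered allele in their labels, and each of the 23 samples was 1 Affymetrix array. In the flight experiment, gastrocnemius came from mice flown for 11 days and 19 hours (spaceflight, n = 4) and from ground mice housed as long in the animal enclosure module, the flight cage (ground AEM, n = 4). In the second experiment, calf muscle came from mice suspended for 12 days and then loaded again for 3.5 hours (reloaded, n = 5), from mice suspended by the tail for 12 days (suspension, n = 5) and from untreated mice in ordinary cages (control, n = 5). The labels do not say that replicates are separate animals, and the spread that p-values measure may be technical. Groups were read from titles and source names, with which the series design is in accord, but the description field has flown and enclosure animals the wrong way round. Were that field right, each flight difference given here would change sign, and the genes would have moved oppositely in flight and in suspension.

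Cyp2e1 is a cytochrome P450 of the endoplasmic reticulum that oxidises ethanol, acetone and fatty acids with electrons passed on from NADPH by the reductase Por. It is best known from liver, where fasting and acetone raise it in rats, and it is also made in fat tissue. Art3 belongs to the membrane-anchored mono-ADP-ribosyltransferases, a family that modifies cell-surface proteins with ADP-ribose from NAD, although human ART3 lacks the residues of the usual active site. Tfcp2l1 is a transcription factor of the CP2 family known from pluripotent stem cells and the collecting duct of the kidney. Nup133 is a scaffold protein of the Y complex, which builds the outer rings of the nuclear pore. Rmdn1 is named as a regulator of microtubule dynamics, a role known from its Caenorhabditis elegans homologue.

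The start-site windows of the genes are shown because members selected on moving together may or may not share the letters around their starts. RefSeq windows on build GRCm38.p6, 250 bases before to 50 bases after the start, were matched by symbol for 4 of the 5 members, in 6 windows. Capitals mark matches to the motifs searched, on either strand. The Cyp2e1 window lies at chr7:140763569-140763868 on the + strand. Of 3 Art3 windows, the second, at chr5:92386637-92386936 on the + strand, is printed because it has a TATAAA close to its start. The first has 3 matches to TATAAA, 245 to 163 bases before its start, and the third has 0. The Tfcp2l1 window is chr1:118627695-118627994 on the + strand, and the Nup133 window is chr8:123949216-123949515 on the - strand.
Cyp2e1: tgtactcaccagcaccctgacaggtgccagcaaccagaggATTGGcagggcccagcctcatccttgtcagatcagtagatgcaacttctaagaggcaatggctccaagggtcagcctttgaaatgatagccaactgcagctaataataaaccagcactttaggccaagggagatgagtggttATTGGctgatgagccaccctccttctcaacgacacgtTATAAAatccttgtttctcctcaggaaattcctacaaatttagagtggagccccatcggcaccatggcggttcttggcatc
Art3: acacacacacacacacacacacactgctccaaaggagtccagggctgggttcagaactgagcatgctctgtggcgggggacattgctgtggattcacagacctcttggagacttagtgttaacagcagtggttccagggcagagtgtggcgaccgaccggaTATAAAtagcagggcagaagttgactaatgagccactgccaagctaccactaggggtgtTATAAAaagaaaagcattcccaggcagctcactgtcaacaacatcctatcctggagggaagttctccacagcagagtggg
Tfcp2l1: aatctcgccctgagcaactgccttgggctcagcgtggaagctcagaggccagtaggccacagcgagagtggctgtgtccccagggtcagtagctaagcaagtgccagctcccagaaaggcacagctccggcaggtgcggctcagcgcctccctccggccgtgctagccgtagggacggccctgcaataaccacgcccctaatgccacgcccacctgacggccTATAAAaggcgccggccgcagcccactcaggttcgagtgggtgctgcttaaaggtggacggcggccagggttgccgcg
Nup133: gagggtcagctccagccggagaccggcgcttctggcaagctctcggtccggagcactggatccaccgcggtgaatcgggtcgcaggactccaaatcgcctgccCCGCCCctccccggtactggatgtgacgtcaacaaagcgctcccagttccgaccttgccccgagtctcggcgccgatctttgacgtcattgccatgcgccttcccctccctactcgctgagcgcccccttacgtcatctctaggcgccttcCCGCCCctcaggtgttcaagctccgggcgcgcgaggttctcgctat
The letters TATAAA began 31 bases before the start in Cyp2e1 and 28 bases before it in Tfcp2l1. In the printed Art3 window, which was picked for this match, they began 89 and 30 bases before it. The Nup133 window held no TATAAA and 2 matches to GGGCGG, and it had 31 CpG dinucleotides and 65.3% G and C. The Cyp2e1 window had 4 CpG and the Tfcp2l1 window 21, against a median of 7 over all 32851 windows. Windows with TATAAA at any position made up 13.6% of the whole table, and those with GGGCGG 35.7%. CCAAT, found at 2 places in Cyp2e1, occurred in 37.4% of windows. AGAACA was present in the other 2 windows of Art3 and in 19.0% of all windows. No window of a member held CACGTG (7.15% of all windows), GTAAACA (3.65%), the HNF1 site (0.00913%) or the NRF1 site (4.6%). Searches covered both strands, and matches may overlap. A match describes letters in a window and is not evidence of a bound factor.

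Array medians ran from 6.15 to 6.23 on the log2 scale for gastrocnemius and from 6.28 to 6.39 for calf muscle. The interquartile range was 2.75 to 2.91 for gastrocnemius and 2.20 to 2.46 for calf muscle, and levels were therefore compared only within an experiment. Correlations between arrays of a group were at least 0.992 in flight and 0.981 in the calf. Suspension replicate 8 stood apart from its group, with a median correlation of 0.985. Mean log2 signal over 10 skeletal muscle markers lay between 13.24 and 13.45 on every array. Of 10 slow-fibre markers, Myl2 fell in spaceflight, where the list's log2 differences ran from -0.49 to 0.19 with a median of -0.03. Myl3, Casq2 and Myoz2 fell in suspension, where the list's median log2 difference was -0.39. Over all genes tested, 2.46% were called lower in flight and 0.241% in suspension (limma adjusted p under 0.05). Mean signal of that list was 11.05 to 11.36 on suspension arrays, against 11.53 to 11.69 on control arrays. Of 4 Schwann cell markers, Mbp rose in suspension, by 1.87 (limma adjusted p = 0.0287), and the list's mean signal was 8.54 to 9.04 on suspension arrays, against 7.75 to 8.12 on control arrays. The part of these cells in the results that follow was not tested. These arrays read whole muscle, so a change in the number of cells of a type and a change in RNA per cell cannot be told apart.

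Cyp2e1, read by the single probe set 1415994_at, had the biggest difference of the 5 genes in both experiments. Its log2 signal was 9.79, 8.83, 8.72 and 8.19 in spaceflight gastrocnemius, against 7.22, 6.95, 7.62 and 7.48 in ground AEM. Every spaceflight array was above every ground AEM array, with the widest scatter among the flown samples. The means were 8.88 ± 0.66 in spaceflight and 7.32 ± 0.29 in ground AEM (SD, n = 4 each), a log2 difference of 1.56 ± 0.26 (SE), or 2.96-fold. Without spaceflight replicate 10, the highest array, the difference was 1.26. In calf muscle, the signal was 9.24, 8.88, 9.06, 9.30 and 8.51 after suspension, against 8.01, 7.89, 7.85, 7.67 and 8.06 in controls. The suspension arrays again lay wholly above the controls, and the log2 difference was 1.10 ± 0.14, or 2.15-fold. By absolute log2 difference, Cyp2e1 came 11th of 9133 genes in flight and 5th in suspension.

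After 3.5 hours of reloading, Cyp2e1 stood at 8.66, 8.37, 8.64, 8.21 and 8.97. These arrays all lay above the controls and overlapped the suspension arrays. The reloaded mean of 8.57 ± 0.29 compares with 9.00 ± 0.32 after suspension and 7.89 ± 0.15 in controls (SD, n = 5 each), which gives log2 differences of -0.43 ± 0.14 from suspension and 0.67 ± 0.14 from control (SE). Both differences share arrays with the comparison on which the gene was selected, so they are given without a test.

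**Figure D1:**
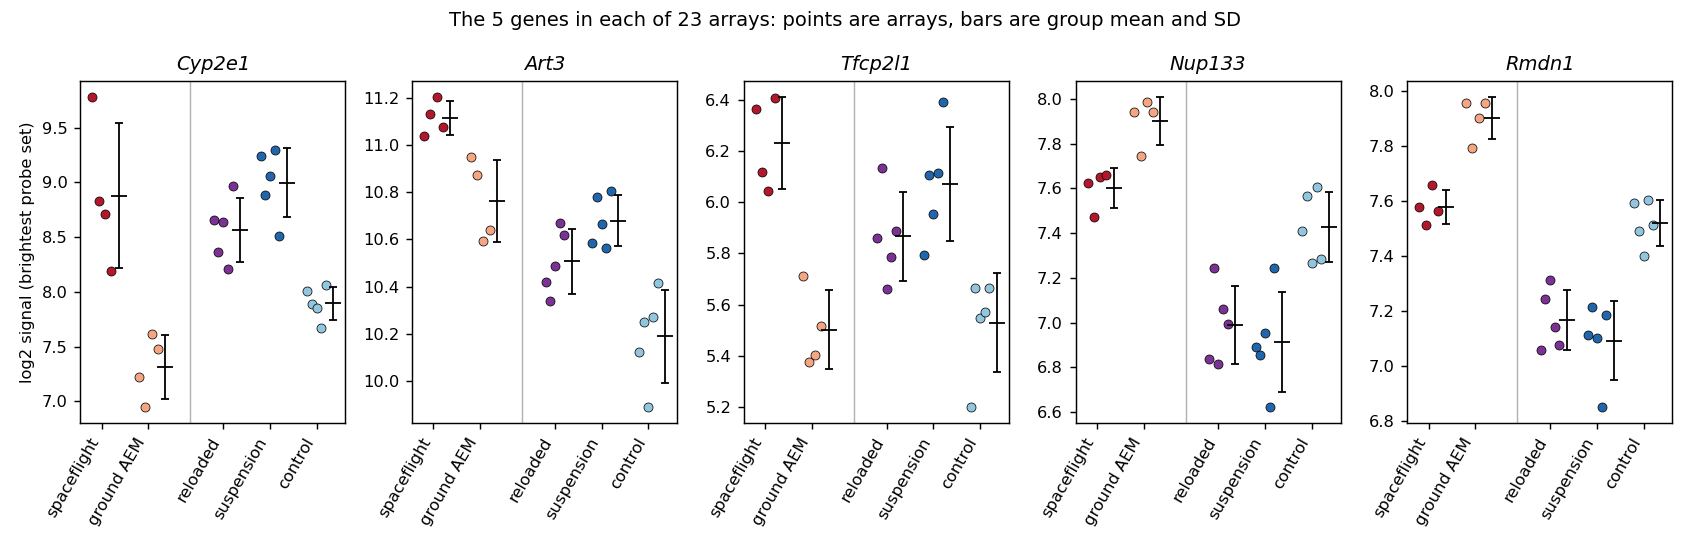
Log2 signal (vertical axis, brightest probe set of each gene, a scale of its own in each panel) of the 5 genes on all 23 arrays. Points are arrays, and bars are the group mean and SD. Spaceflight and ground AEM arrays do not overlap in any panel, nor do suspension and control arrays, while reloaded arrays overlap the suspension arrays in all 5.

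Markers of fat cells moved with Cyp2e1 in flight. Of 7 adipocyte markers tested, 5 rose and 0 fell in spaceflight (limma adjusted p under 0.05), where 3.18% of all 9133 genes were called higher and 2.46% lower, and the list's median log2 difference was 0.63, against -0.01 over all genes tested. The lipid droplet protein Cidec rose by 1.67 ± 0.17 (SE, limma adjusted p = 0.00019), the hormone adiponectin (Adipoq) by 1.44 ± 0.12 (adjusted p = 9.1e-05) and resistin (Retn) by 1.05 ± 0.13 (adjusted p = 0.000511). The other 2 that rose were Lipe and Lep. In suspension, where 0.372% of all genes were called and 8.65% had an unadjusted p under 0.05, 0 of 7 passed in limma and 5 had an unadjusted p under 0.05. The median log2 difference there was 0.53, against 0.00 over all genes. Adipoq differed by 0.86 ± 0.22 there (adjusted p = 0.109).

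The mean log2 signal of the 7 markers was 8.62 to 8.95 on spaceflight arrays, against 7.84 to 8.06 on ground AEM arrays. It was 7.95 to 8.65 on reloaded arrays, 8.35 to 8.82 on suspension arrays and 7.57 to 8.41 on control arrays. None of the 7 was below the level filter throughout: Adipoq was above 5.83 on 23 arrays, Lep on 18 and Cidec on 8. Cidec ran from 4.94 to 7.34 and may have passed the filter only through groups in which it was high. Its call therefore needs the same care as the values of Tfcp2l1 below. The part of fat cells in the Cyp2e1 differences was not tested. The hepatocyte markers, which stand for the tissue best known for Cyp2e1, had 0 of 6 called in either comparison by limma. At an unadjusted p under 0.05 there were 0 of 6 as well, against 19.6% of all genes in flight and 8.65% in suspension. Apoa1, Ttr and Tat were above the filter on 23 arrays, Apoa2 on 22, Alb on 21 and Ahsg on 9, whereas Apoc3, Fga and Fgb were above it on 0.

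**Figure D2:**
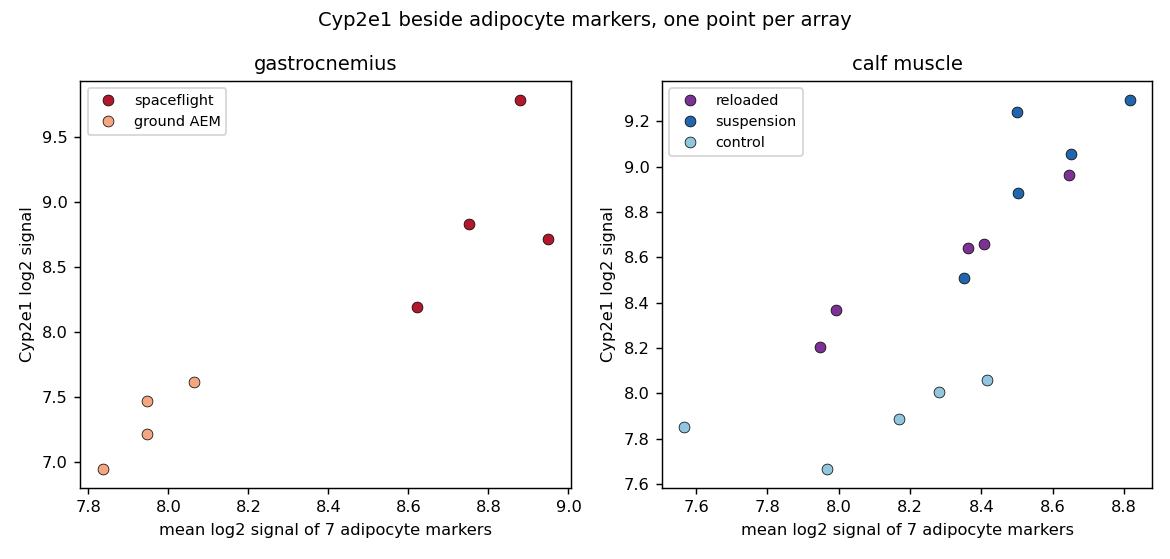
Cyp2e1 log2 signal (vertical axis) against the mean log2 signal of 7 adipocyte markers (horizontal axis), 1 point per array, in gastrocnemius (left) and calf muscle (right), each with axes of its own. The flight groups separate on both axes, whereas the reloaded, suspension and control arrays overlap on the marker axis between 8.35 and 8.41.

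Genes around Cyp2e1 in its reaction were read against all genes, of which 5.64% were called and 19.6% had an unadjusted p under 0.05 in flight. Of 18 listed genes of P450 electron transfer and of ethanol or aldehyde oxidation, epoxide hydrolases included, 14 were tested. The reductase Por was not among these 14. Of the 14, 1 rose and 1 fell in spaceflight and 3 had an unadjusted p under 0.05. The alcohol dehydrogenase Adh1 rose by 0.57 ± 0.12 (SE, limma adjusted p = 0.0119), and the epoxide hydrolase Ephx1 fell by 0.42 (adjusted p = 0.025). In suspension 0 of the 14 passed, with 5 at an unadjusted p under 0.05 against 8.65% of all genes, and Adh1 differed by 0.30 (adjusted p = 0.333). The medians were 0.08 in flight and 0.00 in suspension. Of 14 other cytochrome P450 genes tested, Cyp2d22 rose in spaceflight, by 0.79 ± 0.11 (adjusted p = 0.00112), and 0 passed in suspension (2 at an unadjusted p under 0.05), where Cyp2d22 differed by 0.22 (adjusted p = 0.367).

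Art3, read by the probe set 1452474_a_at, differed by less than Cyp2e1. Its groups were tighter except for controls (SD 0.20, against 0.15 for Cyp2e1). Its log2 signal was 11.04, 11.13, 11.20 and 11.07 in spaceflight, against 10.95, 10.87, 10.59 and 10.64 in ground AEM. The lowest spaceflight array was only slightly above the highest ground AEM array. The means were 11.11 ± 0.07 in spaceflight and 10.76 ± 0.17 in ground AEM, and the log2 difference was 0.35 ± 0.09 (SE), or 1.27-fold. In the calf, Art3 read 10.59, 10.78, 10.67, 10.56 and 10.80 after suspension, against 10.12, 10.25, 9.89, 10.27 and 10.41 in controls, a log2 difference of 0.49 ± 0.09, or 1.40-fold. The 5 reloaded arrays, at 10.42, 10.34, 10.49, 10.67 and 10.62, overlapped both of these groups. The reloaded log2 difference was -0.17 ± 0.09 from suspension and 0.32 ± 0.09 from control.

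Of 11 tested genes for ADP-ribosyltransferases and an ADP-ribose hydrolase, 1 rose and 0 fell in spaceflight, and 4 had an unadjusted p under 0.05. Over all genes, 5.64% were called and 19.6% were at that p. In suspension 0 passed (limma; 1 at an unadjusted p under 0.05), against 0.372% and 8.65% over all genes. The gene that rose was Adprhl2, a hydrolase that removes ADP-ribose from proteins (0.45 ± 0.10, SE, limma adjusted p = 0.0227), which differed by 0.07 ± 0.08 in suspension. Art1, the muscle enzyme of the same family as Art3, differed by 0.07 in flight (adjusted p = 0.631) and 0.09 in suspension (adjusted p = 0.793). Art5 differed by 0.00 in flight, with the sign of a decrease, and by 0.20 in suspension (adjusted p = 0.542).

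Tfcp2l1 lay close to the level filter, and its selection needs care for that reason. The probe set 1418091_at read 6.36, 6.12, 6.04 and 6.41 in spaceflight, against 5.71, 5.38, 5.40 and 5.52 in ground AEM. All 4 spaceflight arrays and none of the 4 ground AEM arrays were above the filter of 5.83. The means were 6.23 ± 0.18 in spaceflight and 5.50 ± 0.15 in ground AEM, and the log2 difference was 0.73 ± 0.10 (SE), or 1.66-fold. After suspension the signal was 5.79, 6.11, 5.96, 6.12 and 6.39, against 5.20, 5.67, 5.55, 5.57 and 5.67 in controls, a log2 difference of 0.54 ± 0.11, or 1.46-fold. The suspension arrays lay above the controls, 4 of 5 of them over the filter and 0 of 5 controls. Reloaded arrays read 5.86, 6.13, 5.66, 5.79 and 5.89, with 3 of 5 over the filter and an overlap with both other groups. The reloaded log2 difference was -0.21 ± 0.11 from suspension and 0.34 ± 0.11 from control.

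The gene thus passed the filter on 11 arrays, only through groups in which it was high. Its other probe sets, 1460714_at and 1460715_x_at, were below the filter on every array, with means of 3.40 and 3.54. They differed by -0.06 and 0.13 in flight and by 0.01 and 0.08 in suspension on the log2 scale, so the difference rests on 1 of 3 probe sets. Of 3 related CP2 and grainyhead factors tested, 0 passed in flight or in suspension (limma, with 0 at an unadjusted p under 0.05 in either). Over all genes, 5.64% and 0.372% were called and 19.6% and 8.65% were at that p. For a list of 3, no call is near the background. Tfcp2, the closest relative by name, differed by -0.14 in flight and 0.01 in suspension, Ubp1 by 0.21 and 0.17, and Grhl2 by 0.03 and 0.11.

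**Figure D3:**
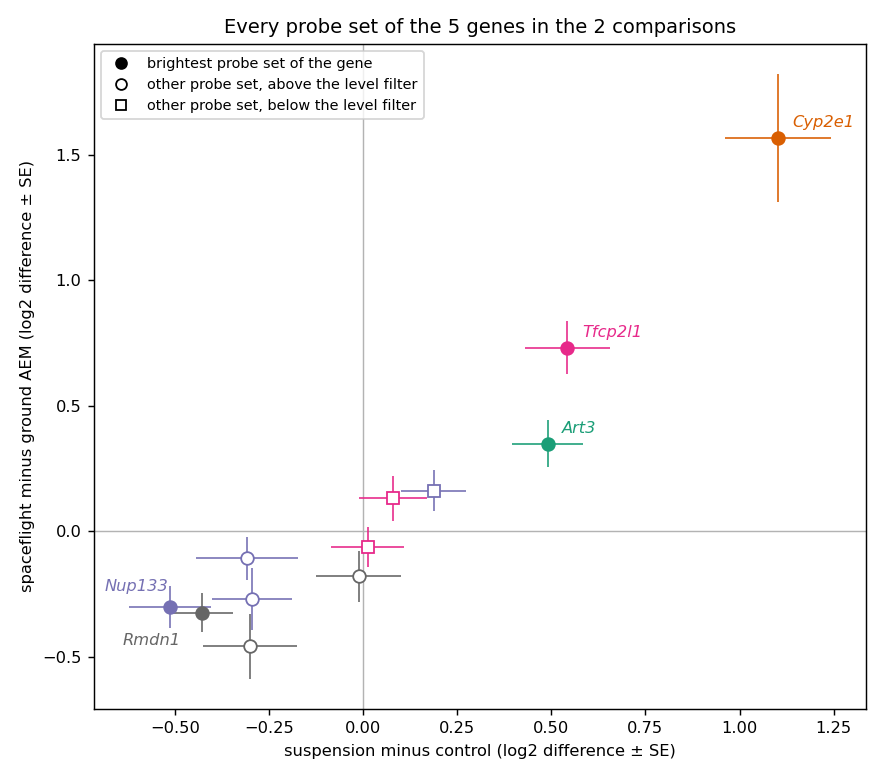
Log2 difference ± SE of each of the 12 probe sets of the 5 genes in suspension minus control (horizontal axis) and in spaceflight minus ground AEM (vertical axis). Filled circles are the brightest probe set of a gene, open circles other probe sets above the level filter and open squares those below it; the values that selected the genes are the filled ones, and the open squares lie near 0 or on the opposite side.

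Nup133 was lower in unloaded muscle. The probe set 1423787_at read 7.62, 7.47, 7.65 and 7.66 in spaceflight, against 7.94, 7.74, 7.99 and 7.94 in ground AEM. The spaceflight arrays lay wholly below the ground AEM arrays, with a gap between the groups narrower than the range within either. The means were 7.60 ± 0.09 in spaceflight and 7.90 ± 0.11 in ground AEM, a log2 difference of -0.30 ± 0.08 (SE). After suspension Nup133 read 6.89, 6.85, 6.95, 6.62 and 7.24, against 7.41, 7.57, 7.27, 7.61 and 7.28 in controls, a log2 difference of -0.51 ± 0.11. The highest suspension array was just under the lowest control. Reloaded arrays read 6.84, 7.24, 6.82, 7.06 and 6.995, also below every control, and differed by 0.08 ± 0.11 from suspension and -0.44 ± 0.11 from control on the log2 scale.

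Of the other 3 probe sets of Nup133, 2 were above the filter on all 23 arrays. 1436816_at differed by -0.11 ± 0.08 (SE) in flight and -0.31 ± 0.14 in suspension, and 1451111_at by -0.27 ± 0.12 and -0.30 ± 0.11. With the mean of its 4 probe sets, Nup133 differed by -0.13 in flight and -0.23 in suspension, and neither call held. Mean signal of 1436816_at was 6.39 ± 0.18 in reloaded, 6.46 ± 0.22 in suspension and 6.77 ± 0.33 in control muscle (SD, n = 5 each), and that of 1451111_at was 6.25 ± 0.07 in reloaded, 6.37 ± 0.20 in suspension and 6.66 ± 0.24 in control muscle. Reloaded minus suspension was therefore -0.07 and -0.12 in these probe sets, opposite in sign to the 0.08 of the brightest one. The remaining one, 1423788_at, was below the filter on every array and differed by 0.16 in flight and 0.19 in suspension.

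Of 9 other Y complex genes, 0 passed in spaceflight and 0 in suspension (limma; 0 and 1 at an unadjusted p under 0.05). With 5.64% of all genes called in flight and 0.372% in suspension, a list of this length with no call is near the background. Their log2 differences lay between -0.02 and 0.17 in flight, with a median of 0.08, and between -0.13 and 0.27 in suspension, with a median of 0.06. Nup107, which binds Nup133 directly in the complex, differed by 0.03 ± 0.08 in flight and 0.08 ± 0.08 in suspension (SE). Among 17 other nucleoporins, Nup50, a protein of the nuclear basket, fell by 0.49 in spaceflight (limma adjusted p = 0.00246) and differed by 0.00 in suspension (adjusted p = 0.992), where 0 of 17 passed.

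**Figure D4:**
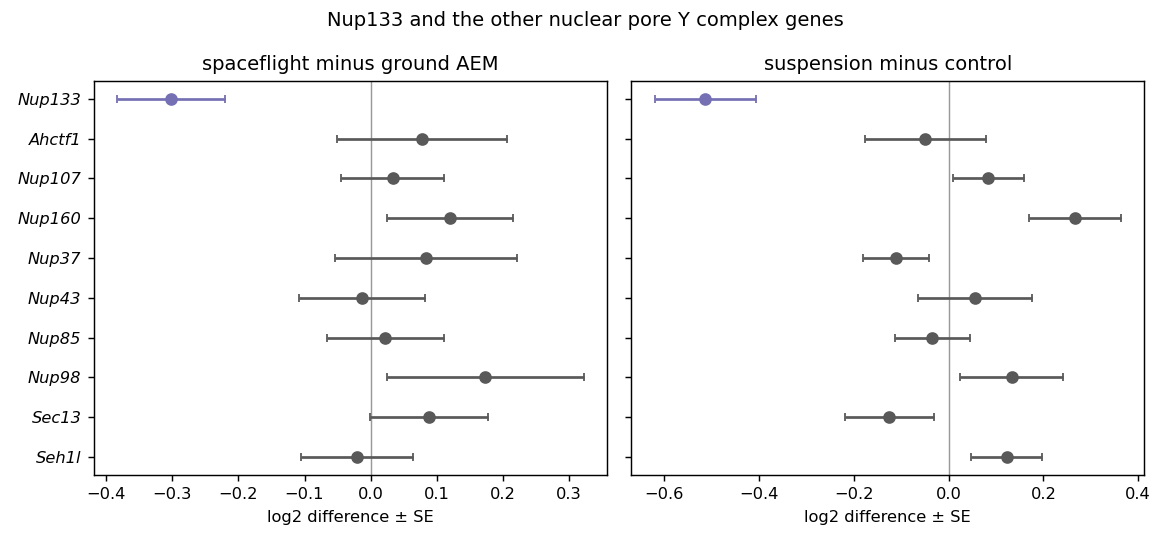
Log2 difference ± SE of Nup133 and of 9 other genes of the nuclear pore Y complex in spaceflight minus ground AEM (left) and suspension minus control (right), each panel with a scale of its own. Nup133, selected on these values, lies at -0.30 and -0.51, and the other 9 lie between -0.02 and 0.17 in flight and between -0.13 and 0.27 in suspension.

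Rmdn1 had the tightest groups of the 5 genes in the flight experiment. The probe set 1418658_at read 7.58, 7.51, 7.66 and 7.56 in spaceflight, against 7.96, 7.79, 7.90 and 7.95 in ground AEM. The groups did not overlap, with means of 7.58 ± 0.06 in spaceflight and 7.90 ± 0.08 in ground AEM and a log2 difference of -0.32 ± 0.07 (SE). After suspension Rmdn1 read 7.11, 7.21, 7.10, 6.85 and 7.18, against 7.59, 7.49, 7.40, 7.60 and 7.51 in controls, a log2 difference of -0.43 ± 0.08. Reloaded arrays read 7.06, 7.24, 7.31, 7.14 and 7.07. They too were below all controls, and they differed by 0.07 ± 0.08 from suspension and by -0.35 ± 0.08 from control.

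The second probe set of Rmdn1, 1438034_at, differed by -0.46 ± 0.13 (SE) in flight and -0.30 ± 0.12 in suspension. After reloading its mean of 6.40 ± 0.10 (SD, n = 5) was near that of controls, 6.42 ± 0.26, so the probe sets disagree on the reloaded muscle. With the mean of its probe sets, Rmdn1 differed by -0.25 in suspension, where the call ended, and by -0.32 in flight. The other, 1452300_at, was above the filter on 5 flight arrays and on 0 calf arrays, and it differed by -0.18 in flight and -0.01 in suspension. Of 23 tested genes of the RMDN family and of microtubule regulation, 0 passed in either comparison (limma; 3 in each at an unadjusted p under 0.05), which is near the shares over all genes of 5.64% and 0.372% called and of 19.6% and 8.65% at that p. The family member Rmdn3, a tether between mitochondria and the endoplasmic reticulum, differed by 0.07 in flight and 0.00 in suspension.

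The selection can be set against all genes as a description. In spaceflight, 3.18% of the 9133 genes were called higher and 2.46% lower (limma adjusted p under 0.05), and 6.38% lay wholly above and 6.00% wholly below ground AEM. In suspension, 0.131% were called higher and 0.241% lower, and 0.701% lay wholly above and 1.34% wholly below controls. By their brightest probe sets, which hold the values of selection, all 5 genes were called in both comparisons and their groups overlapped in neither. Groups did overlap in both comparisons for the Nup133 probe sets 1436816_at and 1451111_at, and in suspension for the Rmdn1 probe set 1438034_at. Genes called in both in the same direction numbered 12, or 0.131% of those tested: the 5 genes and Bdh1, Fasn, Gpt2, Id1, Klf4, Pdlim1 and Tkt. By the larger of a gene's 2 adjusted p-values, Art3 (0.0428) and Nup133 (0.0475) lay just inside the threshold, and the myosin light chain Myl2 (0.0541) and the cysteine dioxygenase Cdo1 (0.0566) just outside.

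Several of these calls ended when 1 array was left out. These fits reuse the values on which the genes were selected, so the counts are a description with no test. Tfcp2l1 also passed the level filter only through groups in which it was high. In flight, Cyp2e1 and Tfcp2l1 were called with each of the 8 arrays left out in turn, whereas Art3 was called in 2, Nup133 in 1 and Rmdn1 in 3 of those 8 fits. In suspension, Cyp2e1 was called in all 10 such fits, Art3 and Rmdn1 in 8, and Tfcp2l1 and Nup133 in 3. Suspension replicate 8, the array that stood apart, was the highest of its group for Cyp2e1 and the lowest for Art3, Nup133 and Rmdn1. Without it, the suspension differences were 1.03 for Cyp2e1, 0.52 for Art3, 0.53 for Tfcp2l1, -0.44 for Nup133 and -0.37 for Rmdn1, and the calls of Tfcp2l1 and Nup133 ended.

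The central 95% of all genes lay between -0.36 and 0.41 on the log2 scale in flight, a range that contains the differences of Art3, Nup133 and Rmdn1. In suspension that range was -0.26 to 0.22, and all 5 genes lay outside it. Whether an effect differed between flight and suspension was not tested.

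The reloaded group allows a comparison with a log2 difference independent of the selection, for genes that clear the level filter in every group. With 5 arrays in each group, reloaded minus the mean of suspension and control (the midpoint) is orthogonal to suspension minus control. Both use the same estimate of spread, so the p-values and intervals here are not independent of the selection. This comparison asks whether reloaded muscle lay nearer to the suspended or the control level. Of all genes, 0.547% (50) were called, and 701 had an unadjusted p under 0.05. Tfcp2l1 passed the level filter only through spaceflight, suspension and reloaded arrays, so its value here is given as a description with no test. Of the other 4 members, 0 were called by limma and 0 had an unadjusted p under 0.05.

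Cyp2e1 lay 0.12 ± 0.12 (SE) above the midpoint (95% interval -0.13 to 0.38, limma adjusted p = 0.831) and Art3 0.07 ± 0.08 above it (-0.10 to 0.24, adjusted p = 0.846). Tfcp2l1 lay 0.07 ± 0.10 above it (-0.13 to 0.27). For the genes that were higher in suspension, above means toward the suspended level. Nup133 lay at -0.18 ± 0.09 (-0.37 to 0.01, adjusted p = 0.679) and Rmdn1 at -0.14 ± 0.07 (-0.28 to 0.00, adjusted p = 0.652), again toward the suspended level. The median of all genes in this comparison was -0.02. Of all genes tested, 43.5% lay on the suspended side of their midpoint, as did 61.8% of the 34 called in suspension, members included. No position of the 4 tested genes passed, which does not place them at the midpoint.

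The positions moved with single arrays. Cyp2e1 lay at 0.02 without reloaded replicate 33 and at 0.21 without reloaded replicate 18, and Art3 at 0.03 without reloaded replicate 18 and at 0.11 without reloaded replicate 15. Tfcp2l1 lay at -0.0012 without reloaded replicate 15, when 32 genes were called in place of 50, and at 0.12 without reloaded replicate 16. Nup133 stayed between -0.24 and -0.14 and Rmdn1 between -0.18 and -0.11 with any single array left out. With the mean of its probe sets, Rmdn1 lay at -0.0465, and its second probe set 1438034_at lay on the other side, at 0.12 ± 0.11 (SE). The Nup133 probe sets 1436816_at and 1451111_at lay at -0.22 ± 0.12 and -0.27 ± 0.09, farther from the midpoint than the brightest one (limma adjusted p = 0.763 and 0.561 over all probe sets).

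**Figure D5:**
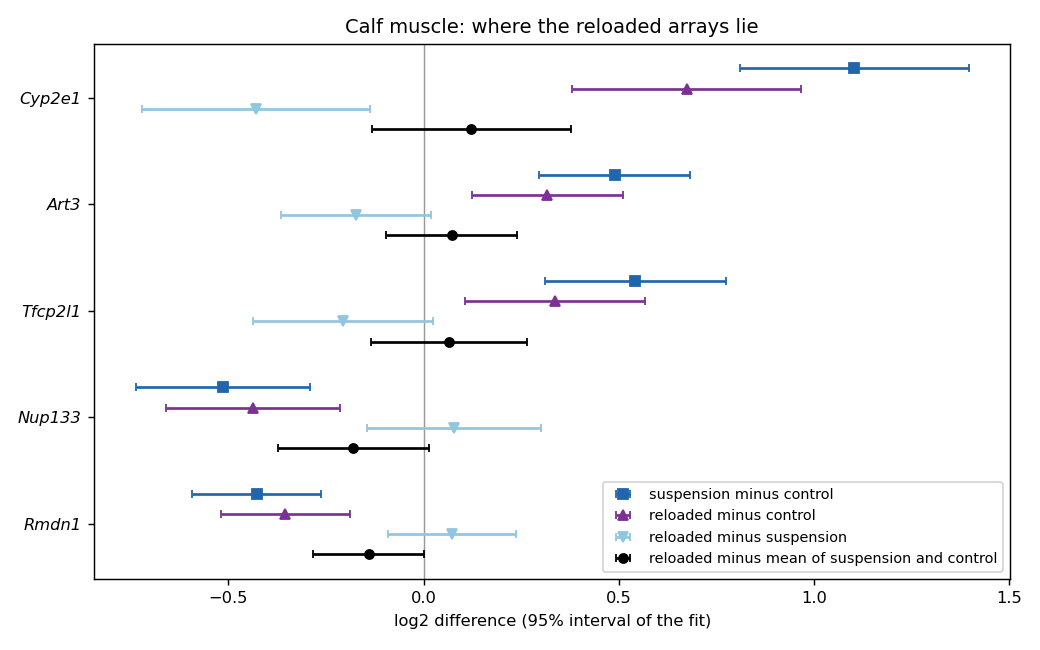
Log2 differences with 95% intervals of the fit in calf muscle for the 5 genes: suspension minus control (squares, the values of selection), reloaded minus control and reloaded minus suspension (triangles, which share arrays with the selection) and reloaded minus the mean of suspension and control (circles). All 5 circles have intervals that reach 0.

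Overlap with the neighbouring groups is given as a description, since these comparisons share control or suspension arrays with the selection. By the brightest probe set, reloaded arrays lay wholly above controls for Cyp2e1, as they did for 0.942% of all genes. They lay wholly below controls for Nup133 and Rmdn1, as for 1.70% of all genes. In the Nup133 probe sets 1436816_at and 1451111_at and the Rmdn1 probe set 1438034_at, reloaded and control arrays overlapped. By the brightest probe set, reloaded arrays overlapped the suspension arrays for all 5, where 1.46% of all genes showed no overlap in either direction. Over all genes, 0.318% were called in reloaded minus control and 0.580% in reloaded minus suspension.

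Genes whose pattern was most like that of each member were found by Pearson r over the 23 arrays after the mean of each experiment was subtracted. These arrays share the groups on which the members were selected, so the r of deviations from group means is given beside it, and both are descriptions. Cyp2e1 was most like Cidec (r = 0.90, and 0.74 within groups), Retn (0.89 and 0.68) and the microsomal glutathione transferase Mgst1 (0.88 and 0.75). Art3 was most like the kinase Wnk2 (0.89 and 0.79), the scaffold protein gene Pde4dip (0.81 and 0.81) and the amylase Amy1 (0.81 and 0.68). Tfcp2l1 was most like Uri1, Car4 and Ezh1 (0.79, 0.78 and 0.76), with within-group values of 0.27, 0.17 and 0.66.

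Nup133 was most like Rangrf, whose protein binds the GTPase Ran (0.89, and 0.81 within groups), then Rmdn1 itself (0.87 and 0.56) and the complex I subunit Ndufs4 (0.85 and 0.71). Rmdn1 was most like Nup133, the ATP synthase subunit Atp5h (0.86 and 0.65) and the complex I subunit Ndufs1 (0.83 and 0.67). Among the 10 pairs of members, Nup133 and Rmdn1 had the highest within-group r, and Cyp2e1 with Nup133 the lowest, at -0.32.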

How the data were processed

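Values on the log2 scale were used as the authors deposited them, from 2.49 to 14.2; the submitters' processing notes name RMA and MAS5, and which of them made the table is not given in the sources used here. These values were neither background-corrected nor normalized again. Of 22690 probe sets, 64 controls were left out, and 20380 have 1 symbol in the platform annotation, which can be old. A gene was its probe set with the highest mean over the 23 arrays, and 9133 of 12393 genes above 5.83 (the 40th percentile) on at least 4 arrays were tested.

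limma 3.58.1 in R 4.3.3 (lmFit, eBayes, two-sided) was fitted to the 8 flight and the 15 calf arrays separately, with Benjamini-Hochberg adjustment over all genes tested and calls under 0.05, and was tested on simulated data. The number of arrays limits the precision. The labels give no batch, so none could be tested.

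The members and lists were chosen with earlier results of these data known. Named genes were the members, up to 3 called genes per list, the 3 genes most like each member and genes called in both experiments; Myl2 and Cdo1, uncalled partners and relatives, and other called genes of short lists were chosen after their values were seen. Marker lists of keratinocytes (0 of 5 called in flight and in suspension) and macrophages (0 of 7) were also read. So were lists of endothelium (1 of 8 lower in flight) and fibroblasts (3 of 7 lower in flight), where 2.46% of all genes were called lower. The 3 fibroblast genes were Col1a1, Col1a2 and Col3a1, with log2 differences of -0.99, -0.73 and -0.61. In suspension 0 of 7 fibroblast markers were called and 5 had an unadjusted p under 0.05, against 8.65% of all genes. The part of fibroblasts in the differences of the members was not tested. Alternatives varied the filter, probe sets, normalization, variance estimation, weights and arrays.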

Additional observations from a re-analysis of the deposited data

Results flagged for a closer look

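Among the 25 combinations of the 5 genes and the 5 groups, 1 sample lay far from the rest of its group: Tfcp2l1 in control replicate 19 read 5.20 on the log2 scale, against 5.55 for the nearest other control, a gap of 0.748 of the group's range. Chance alone marks about 1 in 20 groups in this way. All 5 controls were below the level filter for Tfcp2l1.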

How the results depend on the processing

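Members kept their direction in flight and in suspension under every alternative that gave a value; Tfcp2l1 has none with the 60th-percentile filter or the mean of probe sets, where it is below the filter. Beyond leaving out 1 array, the calls that ended were Cyp2e1 in flight with a variance trend and robust estimation (adjusted p = 0.0548), Art3 in flight with no filter, Nup133 in flight with no filter, the mean of probe sets (-0.13), array weights or 1 fit of 23 arrays, Tfcp2l1 in suspension with array weights, Nup133 (-0.23) and Rmdn1 (-0.25) in suspension with the mean of probe sets, and Art3, Tfcp2l1, Nup133 and Rmdn1 in suspension without suspension replicates 8 and 9. Testing each probe set gave 885 calls in flight against 515, 86 against 53 in reloaded minus suspension, 48 against 29 in reloaded minus control and 80 against 50 from the midpoint. Suspension calls numbered 34, but 17 with the mean of probe sets and 7 without suspension replicates 8 and 9. Reloaded minus control had 88 calls with array weights, 53 with only the 2 groups in the fit and 61 without suspension replicates 8 and 9, and the midpoint had 86 with array weights. The mean of probe sets reversed Nup133 in reloaded minus suspension, to -0.0665 from 0.08; its other 3 probe sets were at -0.07, -0.12 and -0.16 there. With each array left out, calls numbered 283 to 491 in flight (283 without ground AEM replicate 3, 328 without replicate 4, 326 and 303 without spaceflight replicates 8 and 9), 15 to 47 in suspension (16 and 15 without control replicates 19 and 22, 19, 21 and 21 without suspension replicates 8, 9 and 30), 39 to 63 in reloaded minus suspension, 20 to 43 in reloaded minus control and 32 to 58 from the midpoint. The Tfcp2l1 midpoint value ranged from -0.0012 (reversed without reloaded replicate 15) to 0.12. Where no cause is named, it was not tested. No paired analysis was possible because the groups compared share no replicate numbers that pair samples. Signal over background limits Tfcp2l1 and the dim probe sets.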
